A study of Mus musculus with 8 samples.

Results

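The genes described here copy the genome during S phase: 51 genes of origin licensing, the replicative helicase, the polymerases, the sliding clamp and the other fork proteins, nucleotide supply, chromatin assembly behind the fork, and entry into S phase. They were chosen by name, with earlier results of these data known. A probe was counted when the platform annotation gave it one of those names. Of the 51 genes, 48 had a named probe. Signal above background was found for 43, which were the ones tested among 10298 genes. Gins1, Gins2 and Rfc3 had no probe under those names, and the probes of Mcm7, Orc1, Pola1, Pole2 and Ccne1 were not well above background on both arrays of any RNA sample. Of the 43 genes, 41 were detected on all 8 arrays, while Orc2 and Gmnn were detected on 6.

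The measurements came from lungs of embryos at E18.5 (embryonic day). There were 4 groups: SMRTmRID embryos in the c57Bl6/J background whose mothers ate a diet with 0.15% PTU (mRID PTU below), SMRTmRID embryos of mothers on control chow (mRID control), c57Bl6/J wild-type embryos of mothers on 0.15% PTU (wild-type PTU), and c57Bl6/J wild-type embryos of mothers on control chow (wild-type control). The PTU diet was given for 2 days, from E16.5. SMRT is a corepressor of nuclear receptors, the mutation lies in its receptor interaction domains, and propylthiouracil (PTU) blocks the synthesis of thyroid hormone. Both arrays of a group are technical replicates by their labels: 1 RNA sample was measured on arrays A and B. The number of embryos behind each RNA sample is not stated in the sources at hand. Every p-value below is limma's, covers array error only, and compares RNA samples, with no measure of the variation between embryos or litters.

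Before a cell divides, each origin of replication is licensed once. The origin recognition complex (ORC) binds the DNA, Cdc6 and Cdt1 join it, and together they load the ring of Mcm2 to Mcm7, while geminin blocks Cdt1 after S phase has begun. Cdc45 and the GINS complex turn the ring into an active helicase, primase and the polymerases follow it, and the clamp PCNA, loaded by replication factor C, holds the polymerases on the DNA. Many of these genes are transcribed under E2F factors at the passage from G1 to S phase, so in a whole tissue their mRNA is commonly read as a sign of the cycling fraction. Late fetal lung is a tissue in which proliferation declines as the gas-exchange surface forms. In whole lung, more cells of a cycling type and more mRNA per cell cannot be told apart.

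The arrays held 25697 probes, had mean signals from 293.7 to 376.1 and detected between 54.7% and 58.8% of the probes. Arrays of the same RNA sample correlated at 0.997 over the 10298 genes, and arrays of different RNA samples at 0.989 to 0.994. Lung epithelium was well represented in every sample, with all 10 listed type II pneumocyte genes and 7 of 10 type I genes tested. The wild-type control RNA stood apart in tissue markers. The summed signal of 5 squamous epithelial genes was 299 to 316 in mRID PTU, 307 to 311 in mRID control and 299 to 302 in wild-type PTU, against 937 to 1019 in wild-type control. That of 8 heart and skeletal muscle genes was 1514 to 1538 in mRID PTU, 1772 to 1809 in mRID control and 992 to 1063 in wild-type PTU, against 3380 to 3417 in wild-type control. The muscle sum hides genes of another order. Acta1, Myl1 and Myh8, genes of skeletal muscle, were highest in mRID PTU, and rose by 1.63, 1.36 and 1.09 with PTU in mRID and by 1.64, 1.63 and 2.04 in mRID over wild type with PTU. The other 5 muscle genes and all 5 squamous genes were highest in wild-type control. Of those muscle genes, Myl7, Myh6 and Actn2 differed by -0.99, -0.775 and -0.66 with PTU in mRID, against the direction of Acta1, Myl1 and Myh8. The median of the 8 muscle genes there was -0.166. The PTU difference in mRID and the genotype difference with PTU use no wild-type control array, but they too carry shifts of muscle and squamous genes. The squamous genes Krt4 and Krt13 differed by -0.98 and -0.80 with PTU in mRID, and Krt14 by 0.70 in mRID over wild type with PTU. By the test given below, 0 squamous genes passed in the opposite direction in either comparison. The part of these tissues in the differences below was not tested.

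The replication genes were highest in the mRID control RNA, next highest in the wild-type PTU RNA, and lowest in the mRID PTU and wild-type control RNA. Averaged over the 43 genes, the normalized log2 signal was 7.64 on both mRID PTU arrays, 7.86 and 7.87 on the mRID control arrays, 7.77 and 7.82 on the wild-type PTU arrays, and 7.62 and 7.64 on the wild-type control arrays. The mRID control and wild-type PTU levels did not overlap with the others or with each other, while the mRID PTU and wild-type control levels overlapped. The summed signal of the 43 genes was 14762 and 14475 on the mRID PTU arrays and 13857 and 14026 on the wild-type control arrays. By that measure mRID PTU lay above wild-type control without overlap. Of the 43 genes, 27 had their highest group mean in mRID control, which 22.1% of all genes tested had. For 32 the 2 highest groups were mRID control and wild-type PTU, against 26.2% of all genes. For 25 of these mRID control was the highest and wild-type PTU next, against 10.9% of all genes. The lowest group was mRID PTU for 18 genes and wild-type control for 20, against 31.6% and 25.8% of all genes.

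**Figure D1:**
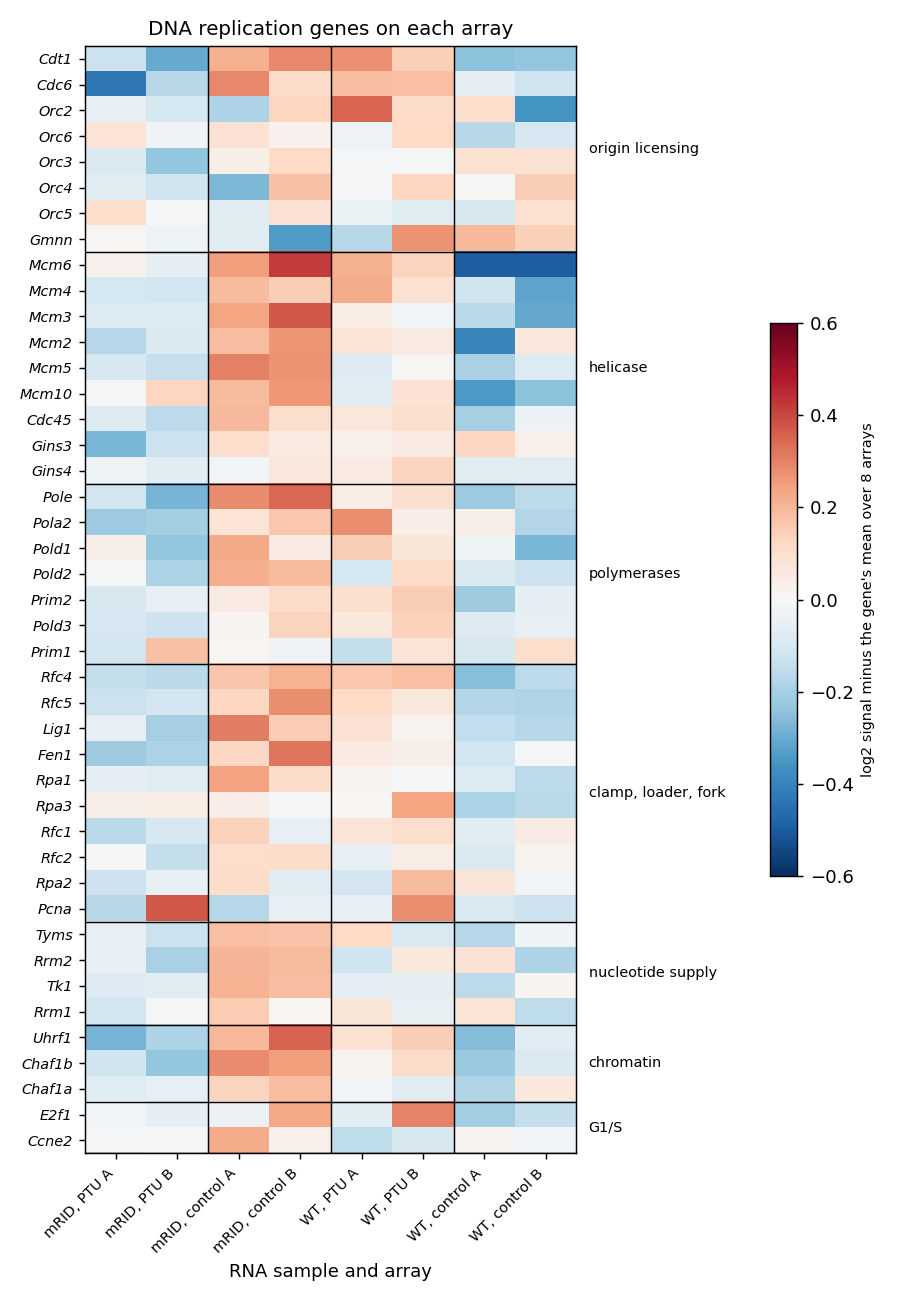
Normalized log2 signal of the 43 replication genes (rows, grouped by role) on the 8 arrays (columns), each shown as its difference from the gene's mean over the arrays. Most rows are red on the mRID control arrays, paler red on the wild-type PTU arrays, and blue on the mRID PTU and wild-type control arrays. Orc3, Orc4, Orc5, Pcna, Gmnn and Prim1 are among the rows that depart from this.

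The question whether PTU acted alike in both genotypes was put to the genotype by diet term, that is, the PTU difference within mRID less the same difference within wild type. To pass, a gene needed a Benjamini-Hochberg adjusted p under 0.05 over all 10298 genes and a size of at least 1.5-fold, which is 0.585 on the log2 scale. Of the 43 replication genes 10 passed, all with a negative term, and 0 passed with a positive one. Among all genes tested, 3.27% passed with a negative term and 6.18% with a positive one. The median term was -0.41 over the 43 genes and -0.04 over all genes, and 40 of the 43 were negative, as were 55.9% of all genes. With the adjusted p alone, 17 replication genes had a negative term and 0 a positive one, against 7.02% and 8.65% of all genes.

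Mcm6, a subunit of the helicase ring, had the most negative term of the 43. Its signal was 10.44 and 10.35 on the mRID PTU arrays, 10.66 and 10.83 on the mRID control arrays, 10.62 and 10.54 on the wild-type PTU arrays, and 9.92 and 9.92 on the wild-type control arrays. On this probe, the brightest of several, the wild-type control arrays lay far below the other 6. On it mRID PTU lay below mRID control and wild-type PTU without overlap. The term was -1.02 (SE 0.13, adjusted p 0.000625). Cdt1, the licensing factor that brings the ring to the origin, had a signal of 8.19 and 8.02 in mRID PTU, 8.53 and 8.61 in mRID control, 8.59 and 8.46 in wild-type PTU, and 8.07 and 8.08 in wild-type control. Its levels fell into a higher pair, mRID control and wild-type PTU, and a lower pair, with no overlap between the pairs, and its term was -0.92 (SE 0.13, adjusted p 0.00135).

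Uhrf1, which reads hemimethylated DNA behind the fork and recruits the maintenance methyltransferase, had 9.55 and 9.64 in mRID PTU, 10.03 and 10.18 in mRID control, 9.92 and 9.98 in wild-type PTU, and 9.57 and 9.76 in wild-type control. The mRID control arrays were the highest and the mRID PTU arrays overlapped with those of wild-type control. The term was -0.80 (SE 0.14, adjusted p 0.00385). Pole, the catalytic subunit of the leading-strand polymerase epsilon, had 6.86 and 6.70 in mRID PTU, 7.26 and 7.32 in mRID control, 7.02 and 7.07 in wild-type PTU, and 6.76 and 6.82 in wild-type control, a term of -0.77 (SE 0.13, adjusted p 0.00281). Here mRID control stood above wild-type PTU, and the remaining 4 arrays overlapped. Rfc4, a subunit of the clamp loader, had 7.94 and 7.93 in mRID PTU, 8.25 and 8.29 in mRID control, 8.25 and 8.27 in wild-type PTU, and 7.83 and 7.93 in wild-type control. The higher pair of groups overlapped with each other and not with the lower pair, and the term was -0.71 (SE 0.12, adjusted p 0.00265).

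These 5 genes passed under all 17 alternative settings. The other 5 were Cdc6 (-0.77, SE 0.15, adjusted p 0.00662), Chaf1b (-0.66), Mcm4 (-0.66), Mcm3 (-0.64) and Rfc5 (-0.60). Cdc6, which joins Cdt1 in loading the ring, had 5.95 and 6.21 in mRID PTU, 6.67 and 6.49 in mRID control, 6.56 and 6.56 in wild-type PTU, and 6.32 and 6.26 in wild-type control, so that its lowest group was mRID PTU. Mcm4 dropped under the fold threshold at -0.56 without wild-type control array B. Mcm3 did so at -0.57 without wild-type control array B and at -0.57 without mRID control array B, and Rfc5 at -0.52 without mRID control array B and at -0.57 without wild-type PTU array A. With 1 array left out, 5 further genes passed. They were Mcm2 (-0.82 without wild-type control array B), Pola2 (-0.66 without wild-type control array A, -0.68 without wild-type PTU array B), Fen1 (-0.62 without mRID control array A), Lig1 (-0.64 without mRID control array B, -0.60 without wild-type PTU array B, -0.65 without mRID PTU array A) and E2f1 (-0.61 without wild-type PTU array A).

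**Figure D2:**
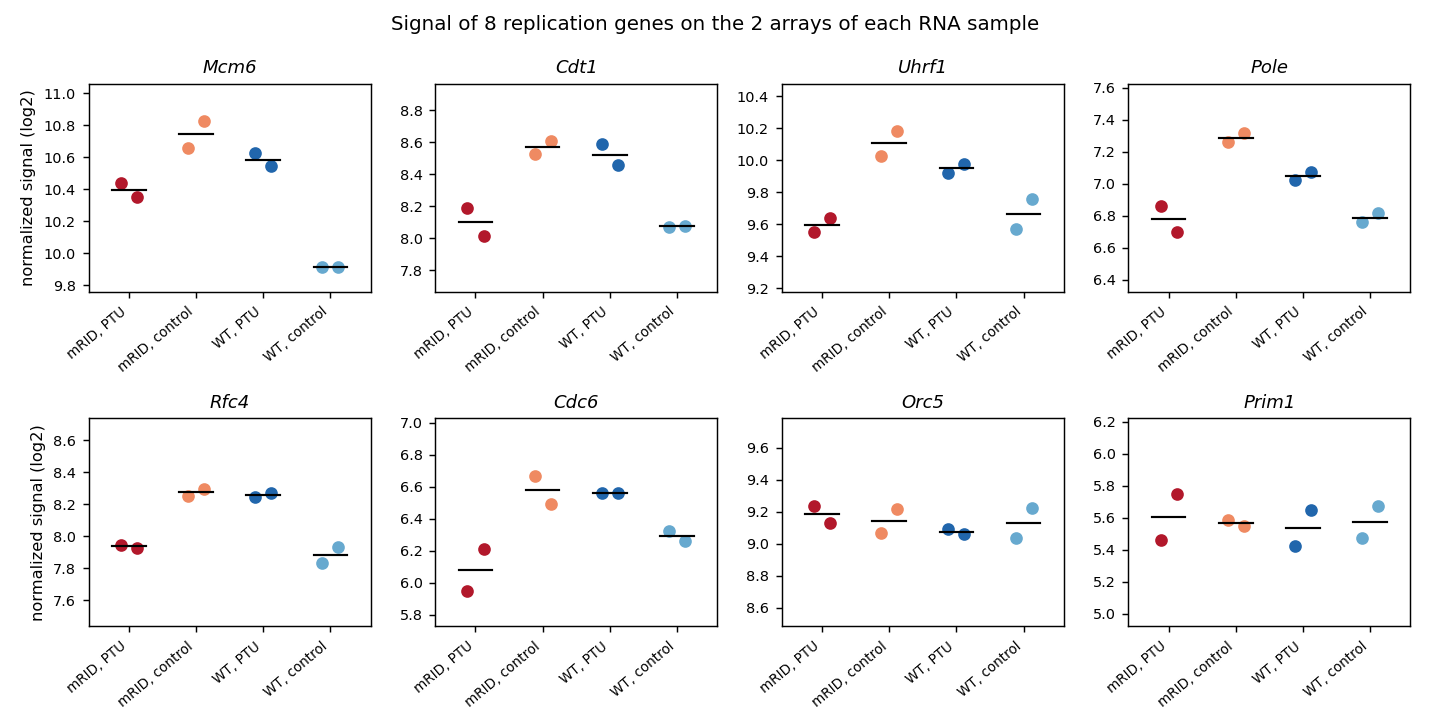
Normalized log2 signal of 8 replication genes on the 2 arrays (points) of each RNA sample, with the mean of the arrays as a line; every panel spans the same log2 range. Mcm6, Cdt1, Uhrf1, Pole, Rfc4 and Cdc6 are higher in mRID control and wild-type PTU than in mRID PTU and wild-type control, while the 4 samples of Orc5 and Prim1 lie within 0.11 and 0.07 of each other by their means.

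Because these genes moved together and many replication genes are known E2F targets, the RefSeq promoter windows (GRCm38.p6, 250 bases before to 50 after each gene's start) were searched for the E2F-type letters TTTCCCGC, TTTGGCGC, TTTCGCGC and TTTGCCGC on both strands. Of the 5 genes that passed under every setting, a choice made after their values were seen, 4 have a window, and Pole is not in the table. For contrast, the window of Gins3, a helicase gene with a genotype by diet term of -0.24 (adjusted p 0.226), is given too. Among the helicase genes with a window, its largest difference over the 5 comparisons was the smallest. Each window is printed on the strand of its gene with the matches in capitals. The windows lie at chr1:128359656-128359955 (minus strand, Mcm6), chr8:122567765-122568064 (plus, Cdt1), chr17:56304063-56304362 (plus, Uhrf1, of 2 listed starts the one with the most matches), chr16:23127681-23127980 (minus, Rfc4) and chr8:95633309-95633608 (plus, Gins3).
Mcm6: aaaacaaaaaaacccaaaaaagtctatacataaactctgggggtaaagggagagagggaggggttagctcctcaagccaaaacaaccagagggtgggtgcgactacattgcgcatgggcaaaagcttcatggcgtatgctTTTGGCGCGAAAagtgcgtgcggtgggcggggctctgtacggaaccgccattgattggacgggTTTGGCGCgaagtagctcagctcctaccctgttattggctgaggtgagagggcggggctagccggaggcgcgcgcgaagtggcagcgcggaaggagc
Cdt1: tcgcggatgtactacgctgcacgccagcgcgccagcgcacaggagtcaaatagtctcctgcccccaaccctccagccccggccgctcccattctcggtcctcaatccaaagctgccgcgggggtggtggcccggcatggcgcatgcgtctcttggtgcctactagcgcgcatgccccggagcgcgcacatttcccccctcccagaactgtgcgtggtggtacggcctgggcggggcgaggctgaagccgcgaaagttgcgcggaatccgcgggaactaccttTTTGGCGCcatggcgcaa
Uhrf1: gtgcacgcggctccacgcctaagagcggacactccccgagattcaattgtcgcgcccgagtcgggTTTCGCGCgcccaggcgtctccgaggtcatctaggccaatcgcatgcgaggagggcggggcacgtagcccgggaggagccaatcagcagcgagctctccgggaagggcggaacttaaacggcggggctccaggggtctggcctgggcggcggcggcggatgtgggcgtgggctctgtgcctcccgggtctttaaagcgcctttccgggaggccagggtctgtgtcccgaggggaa
Rfc4: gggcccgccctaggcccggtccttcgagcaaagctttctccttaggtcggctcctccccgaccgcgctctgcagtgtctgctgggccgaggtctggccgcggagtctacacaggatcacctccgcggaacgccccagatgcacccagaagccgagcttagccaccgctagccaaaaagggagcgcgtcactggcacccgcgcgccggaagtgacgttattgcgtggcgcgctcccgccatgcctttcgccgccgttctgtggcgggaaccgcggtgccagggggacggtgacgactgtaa
Gins3: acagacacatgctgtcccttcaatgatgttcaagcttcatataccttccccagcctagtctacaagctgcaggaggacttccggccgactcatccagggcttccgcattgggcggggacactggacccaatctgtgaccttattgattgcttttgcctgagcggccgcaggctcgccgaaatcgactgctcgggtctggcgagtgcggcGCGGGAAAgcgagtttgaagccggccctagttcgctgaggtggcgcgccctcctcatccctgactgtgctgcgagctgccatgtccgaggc

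The Mcm6 window held 3 matches. A TTTGGCGC began 110 bases before the start and a TTTCGCGC on the opposite strand overlapped it, beginning 106 bases before the start, so that the capitals run into 1 stretch, and a further TTTGGCGC began 47 bases before the start. The single match of Cdt1 lay inside the transcribed part, 32 bases after the start, that of Uhrf1 began 185 bases before it, and Rfc4 had 0. Gins3, whose signal varied by 0.28 between the group means, had a TTTCCCGC on the opposite strand 41 bases before the start. Over the whole family, 11 of the 36 tested replication genes with a window (30.6%) had at least 1 match in any of their windows, among 8333 tested genes of which 4.32% had one. A match was held by 2.26% of all 32851 windows listed. A match was found for 5 of the 8 genes with a window that passed the genotype by diet test and for 6 of the 28 that did not. This split follows the term itself and was not tested. Mcm3 and Cdc6, among the 5, lost the call under some settings. The letters CCAAT, searched for too, were found for 3 of the 8 and 18 of the 28, against 43.3% of the 8333 genes. Of E2F-type sites only the exact forms given above were searched for. A window without a match, such as that of Rfc4, may therefore hold another form of the site. A match describes letters in a window and was not set against any measurement of binding.

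Among the licensing genes both loading factors passed for the genotype by diet term, and no ORC subunit passed in any comparison. The median term over the 8 licensing genes tested was -0.17. Orc3, Orc4, Orc5 and Orc6, subunits of the origin complex, had terms of -0.13, -0.02, 0.10 and -0.20. Orc5 measured 9.24 and 9.13 in mRID PTU, 9.06 and 9.22 in mRID control, 9.09 and 9.06 in wild-type PTU, and 9.04 and 9.22 in wild-type control, and all pairs of groups overlapped except mRID PTU and wild-type PTU. A different kept probe of Orc5 gave a term of -0.12. Orc2 had a term of -0.41 (SE 0.22, adjusted p 0.234) at a signal of 4.69 and 4.63 in mRID PTU, 4.55 and 4.86 in mRID control, 5.08 and 4.85 in wild-type PTU, and 4.84 and 4.37 in wild-type control. It was detected on 1 array each of mRID control and wild-type control, so its values lie at the detection limit. Gmnn, which encodes geminin, the inhibitor of Cdt1, was the gene with the most positive term, 0.32 (adjusted p 0.303). It too was near the limit, detected on 1 of the 2 arrays of mRID control and of wild-type PTU.

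Helicase genes had a median genotype difference of 0.39 on control chow over 9 tested genes. Besides Mcm6, the ring subunits Mcm2, Mcm3, Mcm4 and Mcm5 differed between mRID control and wild-type control by 0.39, 0.54, 0.39 and 0.42, and Mcm10, which helps to start the fork, by 0.52. Mcm3 measured 5.97 and 5.97 in mRID PTU, 6.29 and 6.42 in mRID control, 6.10 and 6.04 in wild-type PTU, and 5.89 and 5.74 in wild-type control, with no overlap between any of the groups. Mcm5 measured 9.20 and 9.15 in mRID PTU, 9.59 and 9.56 in mRID control, 9.22 and 9.30 in wild-type PTU, and 9.10 and 9.21 in wild-type control. For Mcm5 the mRID control arrays were the highest and the wild-type PTU arrays next, while mRID PTU and wild-type control overlapped. Mcm2 had 1 array out of step, 7.40 on wild-type control array A beside 7.86 on array B. The genotype difference on control chow was smaller for the helicase cofactors Cdc45 (0.27), Gins3 (-0.001) and Gins4 (0.095). For the genotype by diet term Cdc45 had -0.47 (adjusted p 0.0332), beside -0.47 for Mcm10. The GINS subunits Gins3 and Gins4 had terms of -0.24 and -0.23 (adjusted p 0.226 and 0.21).

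The size of the Mcm6 difference depended on the probe. The probe used, the brightest of 4 kept ones, gave 0.83 for mRID control over wild-type control, where the others gave 0.40, 0.48 and 0.38. For wild-type PTU over wild-type control it gave 0.67 and the others 0.27, 0.24 and 0.21. For PTU in mRID it gave -0.35 and the others -0.36, -0.63 and -0.49. The direction of these differences was shared by all 4 probes. For the genotype by diet term 3 of the 4 had an adjusted p under 0.05, and the terms ranged from -1.02 to -0.63. On the other probes the drop with PTU in mRID was close to or larger than the genotype difference on control chow. Thus mRID PTU stood clearly above wild-type control on the probe used alone. With the mean of the kept probes in place of the brightest, Mcm6 differed by 0.52 and 0.35 and no longer passed the fold threshold in these 2 comparisons. Over the replication genes as a whole, 11 had several kept probes, 28 probes in all, and 26 of the 28 had a negative term. The exceptions were 1 probe each of Orc4 and Orc5.

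Of the polymerase genes, 7 were tested and Pole alone passed for the genotype by diet term, with a median of -0.42. Pola2, the B subunit of polymerase alpha, and Prim2, the large primase subunit, had terms of -0.56 and -0.41 with adjusted p-values of 0.0323 and 0.0494. The polymerase delta genes Pold1, Pold2 and Pold3 had terms of -0.50, -0.42 and -0.35 and adjusted p-values of 0.0722, 0.0758 and 0.0748. Prim1, the catalytic primase subunit, was the exception at 0.08. It measured 5.46 and 5.75 in mRID PTU, 5.58 and 5.55 in mRID control, 5.43 and 5.65 in wild-type PTU, and 5.47 and 5.68 in wild-type control, and all groups overlapped.

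Of the 10 clamp and fork genes tested, Rfc4 and Rfc5 passed for the genotype by diet term. The flap nuclease gene Fen1 and the DNA ligase gene Lig1, which join the lagging-strand fragments, had terms of -0.53 and -0.57 (adjusted p 0.0232 and 0.0164), under the fold threshold. The Lig1 values depended on the probe. Its other kept probes, much dimmer, gave terms of -0.17, -0.07 and -0.24, none with an adjusted p under 0.05. For mRID over wild type with PTU, 1 of them gave 0.51 (adjusted p 0.0188 by limma), against the -0.18 of the probe used. Fen1 measured 8.24 and 8.27 in mRID PTU, 8.58 and 8.78 in mRID control, 8.51 and 8.50 in wild-type PTU, and 8.34 and 8.45 in wild-type control, and its groups did not overlap. The loader genes Rfc1 and Rfc2 had terms of -0.27 and -0.21, and Rpa1, Rpa2 and Rpa3, which encode the single-strand binding protein RPA, -0.37, -0.12 and -0.27, none with an adjusted p under 0.05. Pcna had a term of -0.01 (SE 0.23, adjusted p 0.98) with a wide spread between arrays. It measured 7.44 and 7.98 in mRID PTU, 7.44 and 7.56 in mRID control, 7.56 and 7.89 in wild-type PTU, and 7.52 and 7.49 in wild-type control. The arrays of mRID PTU alone span the range of nearly all the others.

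Of the 4 nucleotide supply genes 0 passed for the genotype by diet term. Rrm1 and Rrm2, the subunits of ribonucleotide reductase, Tyms, thymidylate synthase, and Tk1, thymidine kinase, had terms of -0.19, -0.34, -0.38 and -0.29, with adjusted p-values from 0.0917 to 0.406. Tk1 measured 7.74 and 7.75 in mRID PTU, 8.03 and 8.01 in mRID control, 7.77 and 7.77 in wild-type PTU, and 7.67 and 7.84 in wild-type control. For Tk1 the mRID control arrays alone lay apart. The genotype difference on control chow had a median of 0.26 over the 4 genes, and the PTU difference in wild type a median of 0.04.

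Chromatin genes of the fork included 2 that passed for the genotype by diet term, Uhrf1 and Chaf1b, which encodes a subunit of the histone chaperone CAF-1. Chaf1b measured 6.90 and 6.78 in mRID PTU, 7.30 and 7.26 in mRID control, 7.03 and 7.12 in wild-type PTU, and 6.79 and 6.92 in wild-type control, with mRID control the highest. Chaf1a, the large CAF-1 subunit, had a term of -0.24 (adjusted p 0.259). Of the G1/S genes, E2f1, a transcription factor of S-phase genes, had a term of -0.43 (SE 0.18, adjusted p 0.136). Ccne2, which encodes cyclin E2, had a term of -0.01, with an adjusted p of 0.977.

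For genotype on control chow, mRID control had more signal than wild-type control for most replication genes, by small amounts. Mcm6 passed with 0.83 (SE 0.09, adjusted p 0.000601, 1.77-fold), and 0 genes passed in the other direction. The difference was positive for 36 of the 43, as for 52.5% of all genes. Among all genes tested 0.437% passed as higher and 1.16% as lower in mRID. The median difference was 0.27 over the 43 genes and 0.01 over all genes. With median scaling between arrays the median over the 43 genes was 0.15, where that of all genes was -0.07. With the adjusted p alone, 12 of the 43 were higher in mRID and 0 lower, against 2.12% and 2.72% of all genes. The 12 were Mcm3, Mcm4, Mcm5, Mcm6, Mcm10, Cdt1, Rfc4, Rfc5, Pole, Lig1, Chaf1b and Uhrf1, from 0.38 to 0.83. Both mRID arrays lay above both wild-type arrays for 32 of the 43 genes and below them for 1, against 26% and 23.8% of all genes. The number that passed was 1 with all arrays and 1 or 2 with each array left out, Mcm2 passing at 0.62 without wild-type control array B and Mcm3 at 0.61 without wild-type control array A and at 0.61 without mRID control array A.

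For PTU in wild type, Mcm6 again passed, at 0.67 (SE 0.09, adjusted p 0.000932, 1.59-fold), and 0 replication genes were lower. The difference was positive for 36 of the 43, against 53.9% of all genes. This comparison shares the wild-type control arrays with the one before. Of all genes tested 1.1% passed as higher and 2.45% as lower. The median was 0.17 over the 43 genes and 0.02 over all genes. With the adjusted p alone, 4 of the 43 were higher and 0 lower, against 5.27% and 6.54% of all genes, the 4 being Mcm4 (0.38), Mcm6, Cdt1 (0.45) and Rfc4 (0.38). Both PTU arrays lay above both control arrays for 27 of the 43 and below them for 2, against 30.5% and 25.4% of all genes.

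In mRID the PTU difference was negative for 38 of the 43 genes, against 54.9% of all genes. No replication gene passed the fold threshold in either direction, a count of 0 of 43 from limma, and 2.51% of all genes passed as higher and 0.816% as lower. With the adjusted p alone, 12 of the 43 were lower with PTU and 0 higher, against 4.5% and 5.86% of all genes. The median was -0.24 over the 43 genes and -0.02 over all genes. Uhrf1, Pole and Cdc6 had the most negative differences, -0.51, -0.51 and -0.50 (adjusted p 0.00903, 0.00518 and 0.0146), followed by Cdt1 at -0.47, Chaf1b at -0.44, Fen1 at -0.42 and Mcm5 at -0.40. Mcm3, Mcm6, Rfc4, Rfc5 and Lig1 made up the rest of the 12, from -0.39 to -0.33. Both PTU arrays lay below both control arrays for 33 of the 43 and above them for 1, against 30.8% and 24.2% of all genes. Without mRID control array A Uhrf1 passed at -0.59, without mRID control array B Cdc6 at -0.59, without mRID PTU array A Pole at -0.59, and without mRID PTU array B Cdc6 at -0.63.

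With PTU, most replication genes had slightly less signal in mRID than in wild type. The difference was negative for 39 of the 43, against 57.8% of all genes. By limma 0 of 43 passed, and of all genes 3.52% passed as higher and 0.66% as lower. The median was -0.15 over the 43 genes and -0.04 over all genes. With the adjusted p alone, 5 were lower and 0 higher, against 5.06% and 7.55% of all genes. These were Cdc6 (-0.48, adjusted p 0.0143), Cdt1 (-0.42, adjusted p 0.0151), Rfc4 (-0.32, adjusted p 0.0297), Uhrf1 (-0.36, adjusted p 0.0408) and Pola2 (-0.37, adjusted p 0.0495). Both mRID arrays lay below both wild-type arrays for 27 of the 43 and above them for 2, against 33.9% and 23.6% of all genes. Cdc6 passed at -0.61 without mRID PTU array B.

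**Figure D3:**
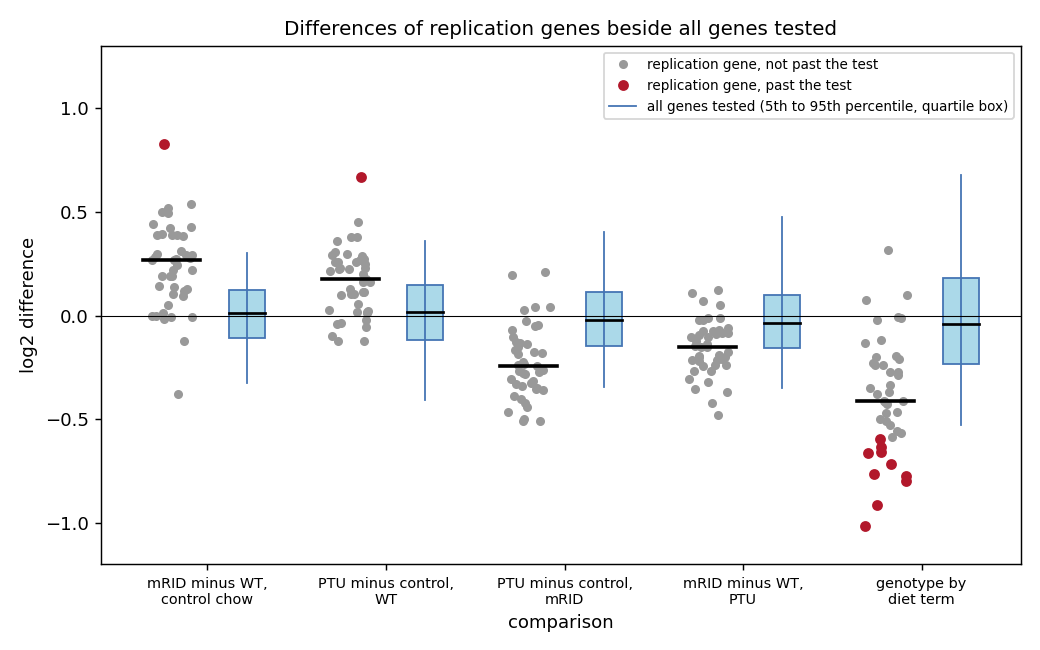
Log2 differences of the 43 replication genes (points, with their median as a line) in the 4 comparisons and the genotype by diet term, beside all 10298 genes tested (box of quartiles, line from the 5th to the 95th percentile). The medians of the replication genes are 0.27, 0.17, -0.24, -0.15 and -0.41 from left to right, and the 10 red points of the last column are the genes that passed there.

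The PTU differences in wild type and in mRID use different arrays, and so do the genotype differences on each diet. For 34 of the 43 replication genes the PTU difference was positive in wild type and negative in mRID, as it was for 32.6% of all genes. Likewise the genotype difference was positive on control chow and negative with PTU for 33 of the 43, against 36% of all genes. Both pairs were formed from the same group means, and the difference within either pair is the genotype by diet term. These counts, and the 4 comparisons of a gene, are therefore not separate results. Cdt1 and Rfc4 were the 2 genes with an adjusted p under 0.05 in all 4 comparisons. For Cdt1 the differences were 0.49 for genotype on control chow, 0.45 for PTU in wild type, -0.47 for PTU in mRID and -0.42 for genotype with PTU. For Rfc4 they were 0.39, 0.38, -0.34 and -0.32 in that order. A dimmer kept probe of Rfc4 gave 0.23, 0.50, -0.32 and -0.59. Its adjusted p from limma was 0.37 for genotype on control chow and 0.152 for PTU in mRID. The result for Rfc4 thus depended on the probe.

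**Figure D4:**
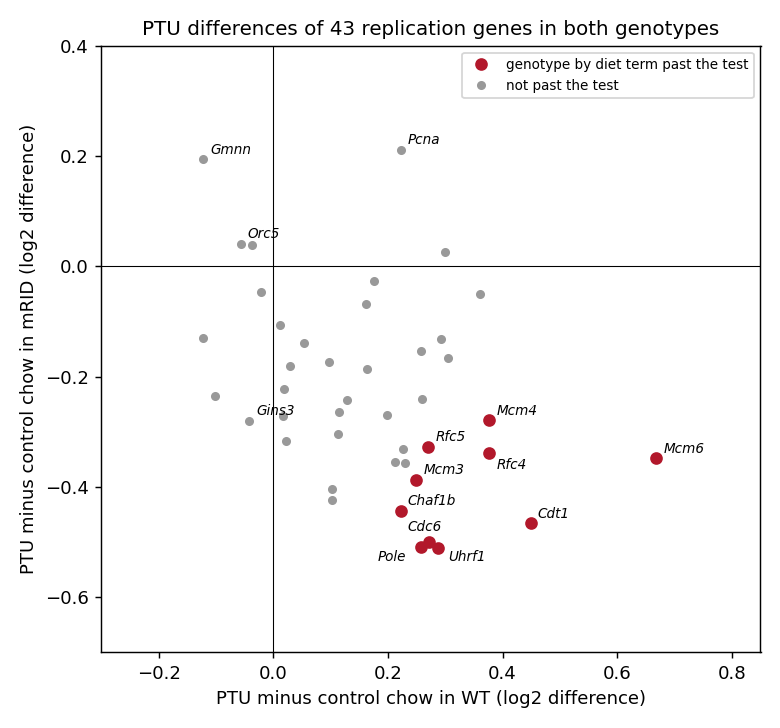
PTU minus control chow difference of the 43 replication genes in wild type (horizontal axis) and in mRID (vertical axis), both as log2 differences. The 10 genes that passed for the genotype by diet term (red) lie in the lower right, with positive differences in wild type and negative ones in mRID, and Pcna, Gmnn and Orc5 are among the 5 genes above 0 on the vertical axis.

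When the arrays of each RNA sample were averaged and genotype and diet were fitted over the 4 RNA samples, 0 of the 43 genes had an adjusted p under 0.05 for either term, and 0 had an unadjusted p under 0.05. Over all 10298 genes 0 passed after adjustment, and 253 for genotype and 343 for diet had an unadjusted p under 0.05. The median main effects over the 43 genes were 0.04 for genotype and -0.04 for diet. This model has 1 residual degree of freedom and takes the genotype by diet term as its error.

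Other genes of DNA replication, such as the checkpoint and initiation factors, were lowest in wild-type control. Their mean log2 signal was 7.25 and 7.28 in mRID PTU, 7.33 and 7.29 in mRID control, 7.32 and 7.35 in wild-type PTU, and 7.14 and 7.17 in wild-type control, so that mRID PTU lay above wild-type control and the mRID control and wild-type PTU arrays overlapped. Of 45 such genes 31 were tested, with medians of 0.19 for genotype on control chow, 0.20 for PTU in wild type, -0.05 for PTU in mRID, -0.13 for genotype with PTU and -0.25 for the genotype by diet term. That term was negative for 25 of the 31. Of the 31, 3 passed as negative, Dctd (-1.005), Wdhd1 (-0.70) and Clspn (-0.67), and 1 as positive, Asf1a (0.62), against 3.27% and 6.18% of all genes. Dctd encodes a deaminase of the thymidylate supply route, Clspn the checkpoint mediator claspin, and Asf1a a histone chaperone. Cdc25a, the phosphatase that activates Cdk2 at the entry to S phase, went against the pattern. It measured 6.98 and 7.08 in mRID PTU, 6.21 and 6.04 in mRID control, 6.27 and 6.45 in wild-type PTU, and 5.96 and 5.91 in wild-type control. It rose by 0.91 with PTU in mRID (adjusted p 0.000277) and by 0.67 in mRID over wild type with PTU (adjusted p 0.00134).

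Of 20 genes of the E2F, RB and cyclin D list 13 were tested, and the medians lay between -0.07 and 0.02 in the 5 comparisons. E2f2, an activating E2F factor, was an exception with 9.68 and 9.82 in mRID PTU, 8.77 and 8.83 in mRID control, 8.35 and 8.50 in wild-type PTU, and 8.58 and 8.74 in wild-type control. It rose by 0.95 with PTU in mRID and by 1.32 in mRID over wild type with PTU, comparisons in which the replication genes had negative medians. Cyclin D2, Ccnd2, rose by 0.87 in mRID over wild type with PTU, and Tfdp2, a partner of E2F factors, fell by 0.61 with PTU in wild type. The 6 tested cyclin-dependent kinase inhibitors had medians of -0.12, -0.16, 0.12, 0.20 and 0.31 in the order of comparisons used for the other replication genes, and 0 of the 6 passed in any of them.

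Mitotic genes shared the low wild-type control level. Over 15 tested genes of 24 listed, the mean log2 signal was 7.83 and 7.80 in mRID PTU, 7.91 and 7.95 in mRID control, 7.92 and 7.91 in wild-type PTU, and 7.58 and 7.65 in wild-type control. In mRID PTU the mitotic genes stood above wild-type control without overlap, whereas the mean log2 levels of the replication genes in these RNA samples overlapped. By summed signal the replication genes too were higher in mRID PTU, at 14762 and 14475 against 13857 and 14026 in wild-type control. The probe used for Mcm6 made up a large part of that gap. The mitotic kinase gene Plk1 measured 7.92 and 7.97 in mRID PTU, 7.93 and 7.98 in mRID control, 8.07 and 7.99 in wild-type PTU, and 7.12 and 7.12 in wild-type control. Plk1 rose by 0.84 for genotype on control chow and by 0.91 for PTU in wild type, and differed by -0.01 for PTU in mRID. Nusap1, a spindle gene, passed together with Plk1 for the genotype by diet term, at -0.64 and -0.92.

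Marker lists of other cell types differed between the groups too, not all in the same order. The erythroid list, 10 of 14 genes tested, had a mean log2 signal of 6.28 and 6.13 in mRID PTU, 6.79 and 6.77 in mRID control, 6.54 and 6.66 in wild-type PTU, and 6.39 and 6.49 in wild-type control. For the genotype by diet term 7 of the 10 passed as negative and 1 as positive, against 3.27% and 6.18% of all genes, and the median was -0.70. Its summed signal had another order, 3183 to 3346 in mRID PTU, 3684 to 3755 in mRID control, 2870 to 2954 in wild-type PTU and 3616 to 3680 in wild-type control. The erythroid genes did not move as one. With PTU in wild type 3 were higher and 3 lower by adjusted p alone, against 5.27% and 6.54% of all genes. Those past the fold threshold as well were Hbb-y (1.18) and Hba-x (1.08), both higher, and Trim10 (-0.79). Type I pneumocyte and endothelial genes ran the other way, with median terms of 0.53 over 7 genes and 0.42 over 8. The type II, fibroblast, neutrophil and thymus lists had median terms of -0.13, 0.16, 0.20 and 0.24, over 10, 9, 7 and 4 tested genes, and the squamous and the heart and skeletal muscle lists 2.19 and 1.19. The part of these cell types in the replication gene differences was not tested.

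**Figure D5:**
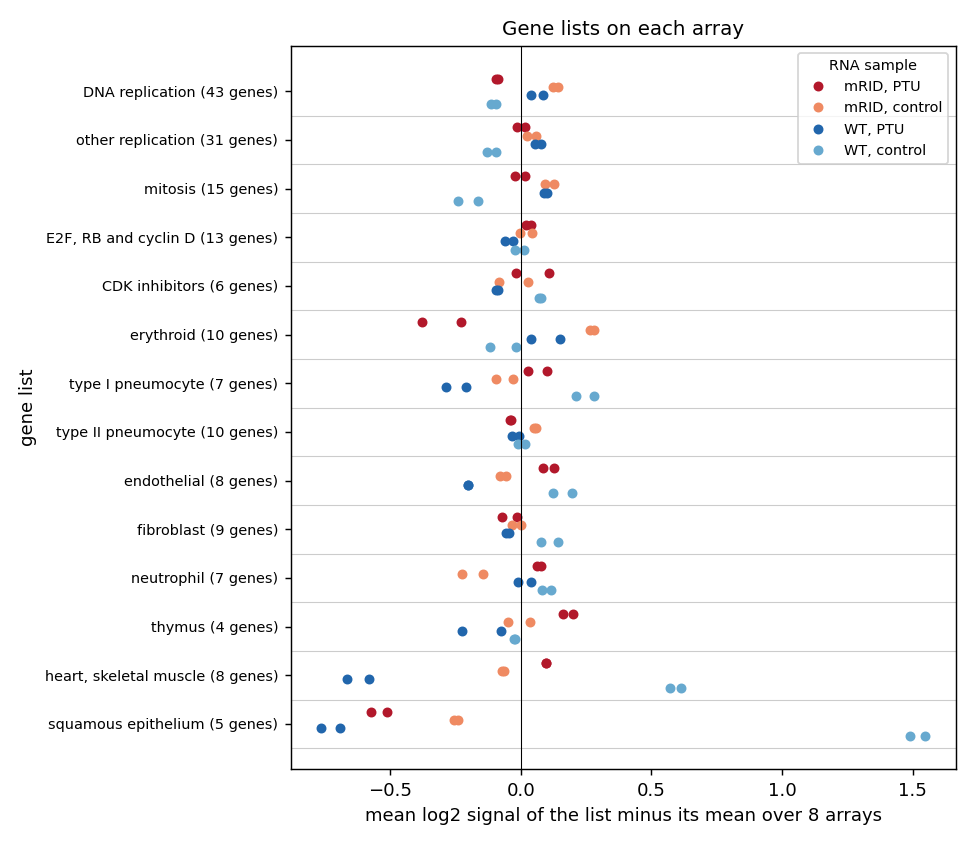
Mean log2 signal of the replication genes and 13 other gene lists on each array, minus the mean of the list over the 8 arrays, with 1 colour for each RNA sample. The replication, mitosis and erythroid lists lie to the right in mRID control and wild-type PTU, and the squamous and muscle lists lie far to the right in wild-type control.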

How the data were processed

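Each of 4 lung RNA samples was hybridised to 2 Illumina bead arrays. Per the labels' protocols, Trizol extracts were treated with DNase I and made into biotinylated cRNA. GenomeStudio was used, per the submitters' processing notes, with no version stated. One deposited table gives each probe's mean signal on every array, a linear intensity not normalized between arrays per its file name, and a detection p-value, per the file headers. The other deposited table holds linear intensity values whose column medians lie between 52.3 and 52.4; normalization by the authors was inferred from this, the method is not stated in the sources at hand, and the table served as an alternative. Array columns carry a group and a letter, so arrays are named that way. The unused columns numbered 0.

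Intensities were background corrected from the detection p-values, given an offset of 16, logged (log2) and quantile normalized (neqc, limma 3.58.1, R 4.3.3). Differences of dim genes are made smaller by the offset. A probe was kept, as 14965 were, if in at least 1 group both arrays had a detection p under 0.05. Of the 25697 probes 23978 had 1 symbol in the platform annotation, 0 had several and 1719 were not listed, and 23962 were matched by gene identifier to RefSeq (GRCm38.p6) with 0 symbols changed. The brightest kept probe stood for a gene. One group mean each was estimated from all 8 arrays together (lmFit, eBayes, 4 residual degrees of freedom, prior 6.39), and p-values were Benjamini-Hochberg adjusted over 10298 genes. The fit was tried on simulated data with independent array noise and changes placed in the mRID control group alone. Only the genotype difference on control chow was checked. The trial therefore does not bear on the genotype by diet term or on variation between RNA samples. The median SD between arrays of an RNA sample was 0.07 (log2), and the number of arrays limits the precision. Replication genes were named without regard to their values, and genes of other lists only where they passed in at least 1 comparison. The genes and lists were chosen with earlier results of these data known.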

Additional observations from a re-analysis of the deposited data

Results flagged for a closer look

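For 10 replication genes the PTU difference in mRID and that in wild type differed by the test of the genotype by diet term, which was -1.02 for Mcm6, -0.92 for Cdt1, -0.80 for Uhrf1, -0.77 for Cdc6, -0.77 for Pole, -0.71 for Rfc4, -0.66 for Mcm4, -0.66 for Chaf1b, -0.64 for Mcm3 and -0.60 for Rfc5. Each rests on 1 RNA sample per group. For the Mcm6 probe used, the wild-type control arrays, both at 9.92, lie furthest from the rest. The other kept probes gave terms from -0.86 to -0.63, and on them mRID PTU did not stand clearly above wild-type control. All 5 squamous markers and 5 of the 8 heart and skeletal muscle markers were highest in the wild-type control RNA. The skeletal muscle genes Acta1, Myl1 and Myh8 were highest in mRID PTU. The part of these markers in the term was not tested.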

How the results depend on the processing

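Left-out arrays moved the number of replication genes that passed to between 1 and 2 for genotype on control chow (1 with all arrays), 1 and 1 for PTU in wild type, 0 and 1 for PTU in mRID, 0 and 1 for genotype with PTU, and 9 and 12 for the genotype by diet term (10 with all arrays), and the medians to 0.22 to 0.27, 0.13 to 0.20, -0.27 to -0.23, -0.19 to -0.12 and -0.43 to -0.35 in the same order. With the adjusted p alone the numbers were 12, 4, 12, 5 and 17. With the mean of the kept probes 0 passed for genotype on control chow and 0 for PTU in wild type. With an offset of 50, 6 passed for the genotype by diet term, its median was -0.32, and the genotype median on control chow was 0.18; that median was 0.15 with median scaling. Among single genes 0 changed direction past the threshold under any alternative, and 23 results lost and 18 gained a call. Chaf1b was under the fold threshold for the genotype by diet term with median scaling, without background correction, with the deposited processed values and with an offset of 50 (-0.58 to -0.53), as were Mcm3 (-0.50 to -0.42) and Rfc5 (-0.53 to -0.49), and Cdc6 with an offset of 50 (-0.55). With the array letter as a replicate block the number that passed was 1, 1, 0, 0 and 11. Deviations of arrays with the same letter correlated at -0.06 to 0.11 between groups, so the letters were not taken as pairs; a block on the replicate numbers of the deposited processed values, added after seeing the data, gave 1, 1, 0, 0 and 7. The last count was 7 with the deposited processed values without a block too, as it was with median scaling and without background correction. Over all genes, median scaling gave 26 higher and 171 lower genes for genotype on control chow, against 45 and 119. Depth here is signal over background: Orc2 and Gmnn lay at the detection limit and 5 listed genes below it.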

Other observations

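Cdc25a and E2f2, genes of the entry to S phase, were both highest in mRID PTU, the RNA sample that was lowest for 18 of the 43 replication genes and for 31.6% of all genes. E2f2 differed from wild-type PTU by 1.32 (SE 0.10, adjusted p 1.59e-05) and Cdc25a by 0.67 (SE 0.10, adjusted p 0.00134), both from limma and both with the 2 mRID PTU arrays above the other 6. Asf1a, a histone chaperone gene, shared this, with 6.49 and 6.58 in mRID PTU, 5.79 and 5.93 in mRID control, 5.54 and 5.89 in wild-type PTU, and 5.69 and 5.65 in wild-type control. These 3 genes were singled out after their values were seen.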
